A study of Mus musculus with 8 samples.

Results

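The genes described here, 10 in number, serve contact between cells and are followed across the cells of the mouse ascending thoracic aorta: 4 genes with a well known endothelial junction role (Cldn5, Cdh5, Pecam1, Esam), the scaffold gene Tjp1, the junctional adhesion genes Jam2 and Jam3, and the connexin genes Gja1, Gja4 and Gja5. They were taken by symbol, and each symbol matched exactly 1 row among the 32285 genes of the deposited count matrix, so all 10 members were found. The cells came from 3 aged wildtype mice of 81, 84 and 88 weeks. The labels give no strain, all 3 animals are of one group, and each age is 1 animal, so no effect of age can be described. The tissue was digested with collagenase and elastase and dead cells were removed. The cells were marked with hashtag antibodies (barcoded antibodies against mouse surface proteins), pooled, and measured as 4 gene expression and 4 hashtag libraries, which the deposited matrix does not keep apart. The cells that carry 1 given hashtag, called a hashtag set below, are therefore taken to stand for 1 animal. An error over n = 3 is the spread between the hashtag sets of 1 pool.

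Endothelial cells hold to each other through adherens junctions, built on VE-cadherin (Cdh5), and tight junctions, in which claudin-5 (Cldn5) seals the cleft, JAM family proteins add adhesion, and ZO-1 (Tjp1) ties the membrane proteins to actin. Connexins form gap junctions, channels that pass ions and small molecules between neighbouring cells. In arteries connexin 37 (Gja4) and connexin 40 (Gja5) are known from the endothelium, and connexin 43 (Gja1) from smooth muscle and from several other cell types.

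All 10 members are protein coding in RefSeq (GRCm38.p6). Cdh5 lies at chr8:104101613-104144504, Pecam1 at chr11:106654213-106715281 and Tjp1 at chr7:65296165-65527850. Cldn5 and Jam2 share a chromosome, at chr16:18776847-18778262 and chr16:84774123-84826380, as do Esam at chr9:37528089-37538319 and Jam3 at chr9:27097384-27155421.

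After filters 4175 cells with exactly 1 hashtag were kept: 569, 2554 and 1052 in sets 1, 2 and 3, with 5200412, 18049453 and 8192038 UMIs. A UMI (unique molecular identifier) counts 1 captured molecule. Clustering without the 10 members and without the junction gene lists gave 21 clusters, which were named from marker genes, so the cell names were made anew and need not match the study's own. Endothelial-like cells numbered 954, smooth muscle-like cells 887 and fibroblast-like cells 215. The endothelial-like cells formed 3 clusters: 713 capillary-like cells (189, 308 and 216 by set), 163 arterial-like cells (36, 76 and 51) and 78 large-vessel cells (23, 21 and 34). All 12 endothelial markers were detected in each of the 3 clusters. Against the other endothelial clusters, 7 of 7 capillary markers, 5 of 8 arterial markers and 6 of 6 large-vessel markers were at least 2-fold higher in the cluster so named, and the large-vessel cluster also had 3 of 8 arterial, 3 of 6 venous and 4 of 7 lymphatic markers that high. The arterial-like cluster had 1 of 4 endocardial markers that high. Hashtags reached the classes unequally: in all cells but those with more than 1 hashtag, 89.2% of endothelial-like, 15.9% of smooth muscle-like and 16.5% of fibroblast-like cells carried exactly 1. The members did not choose the clusters directly, but genes that vary with them did, so differences between classes are not independent of the grouping.

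The junction genes of the endothelium were high in every hashtag set of the endothelial-like cells. Levels are given as CPM, the UMIs of a gene per 1000000 UMIs summed over the cells of a set. Cdh5 stood at 1075, 1139 and 1025 CPM in endothelial-like cells of sets 1, 2 and 3 and at 4.40, 2.94 and 1.51 CPM among smooth muscle-like cells. Cldn5 stood at 1047, 1415 and 1400 CPM against 2.45, 2.29 and 3.31 CPM. The ranges of the classes lay far apart for both genes. Pecam1, the homophilic adhesion receptor CD31, averaged 1009 ± 132 CPM (SD, n = 3) in the endothelium-named class and 21.8 ± 3.33 CPM in smooth muscle. Esam, an adhesion molecule of endothelial tight junctions, averaged 464 ± 39.5 against 13.5 CPM.

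Set against smooth muscle, 8 of the 10 members were called higher in endothelial-like cells and none lower, where a call needs an adjusted p under 0.05 and a log2 fold change of at least 1. Of the 10646 genes tested, 30.4% were called. The median fitted log2 fold change was 5.28 over the members and 0.01 over all genes tested. For Cdh5 the log2 fold change was 8.59 with an SE of 0.17 (adjusted p = 9.23e-10, edgeR's quasi-likelihood test with Benjamini-Hochberg adjustment) and was higher in 3 of 3 sets. The smallest called difference was that of Tjp1, at 2.06 ± 0.12 (adjusted p = 4.79e-07, edgeR). ZO-1 is not restricted to endothelium, and Tjp1 was at 111, 95.0 and 97.9 CPM in smooth muscle-like cells against 428, 497 and 351 CPM in endothelial-like cells. Both members that were not called, Jam3 and Gja1, overlapped between the classes. Jam3 was still higher in 3 of 3 sets (log2 fold change 0.56 ± 0.15, adjusted p = 0.00955, edgeR) and missed only the fold limit. The differences of Cldn5 and Cdh5 were smaller when cells that Scrublet marks as doublets were kept and all clusters were formed and named anew. The log2 fold change of Cldn5 was then 4.97 and that of Cdh5 4.94, and both were still called.

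Against fibroblast-like cells 9 of 10 members were called higher and none lower, where 27.5% of the 9477 genes tested were called. This comparison uses the same endothelial sums as the one with smooth muscle. Jam3 was the member not called, with a log2 fold change of 0.83 ± 0.23 (adjusted p = 0.0108, edgeR). In fibroblast-like cells Cldn5, Esam and Gja4 were highest in set 2, and without that set Cldn5 moved from 5.41 to 6.21 on the log2 scale, Esam from 5.36 to 6.12 and Gja4 from 3.10 to 4.41, all still called. Of the JAM genes, Jam2 differed between the mesenchymal classes. Jam2, which encodes JAM-B, was at 75.6, 61.2 and 71.1 CPM in fibroblast-like cells and at 6.85, 4.57 and 7.23 CPM in smooth muscle-like cells. It was lower in smooth muscle-like cells (log2 fold change -3.45 ± 0.24, adjusted p = 1.68e-10, edgeR), in 3 of 3 sets. With doublets kept this difference was -1.70 and still called. Jam3, which encodes JAM-C, had no such gap: 40.1, 29.7 and 31.3 CPM in smooth muscle-like cells overlapped with 31.3, 20.1 and 35.6 CPM in fibroblast-like cells (log2 fold change 0.38 ± 0.23, adjusted p = 0.225, edgeR).

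Endothelial RNA was also counted in cells that should lack it. The erythroid-like cells held 127.9 to 503.3 CPM of Cldn5 by set, and 8.11% of them had a Cldn5 UMI when every cell was thinned to 1000 UMIs. The same share was 0.68% in T cell-like, 2.33% in fibroblast-like and 63.4% in endothelial-like cells, with median depths of 4316, 3585, 8117 and 4201 UMIs per cell. In fibroblast-like cells Cldn5 averaged 27.2 ± 21.6 CPM and Cdh5 33.2 ± 7.53 CPM, and the part of RNA from other cells in these levels was not tested. In 1300 fibroblast-like cells of every hashtag state except more than 1, the pooled levels were 10.7 and 10.6 CPM. The call of lower Cdh5 in smooth muscle-like than in fibroblast-like cells (log2 fold change -3.37 ± 0.36) rests on these low levels, and with doublets kept it fell to -0.21 (adjusted p = 0.563, edgeR) and was lost.

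Within the endothelium the members did not move as one group. In the large-vessel cluster Gja4, Gja5 and Pecam1 were higher than in the capillary-like cluster, while Cldn5, Cdh5, Tjp1, Jam2, Jam3 and Gja1 were lower. That makes 3 members called higher and 6 lower of 10, where 21.3% of the 7369 genes tested were called. Their median log2 fold change was -1.26, beside 0.00 over all genes tested.

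**Figure D1:**
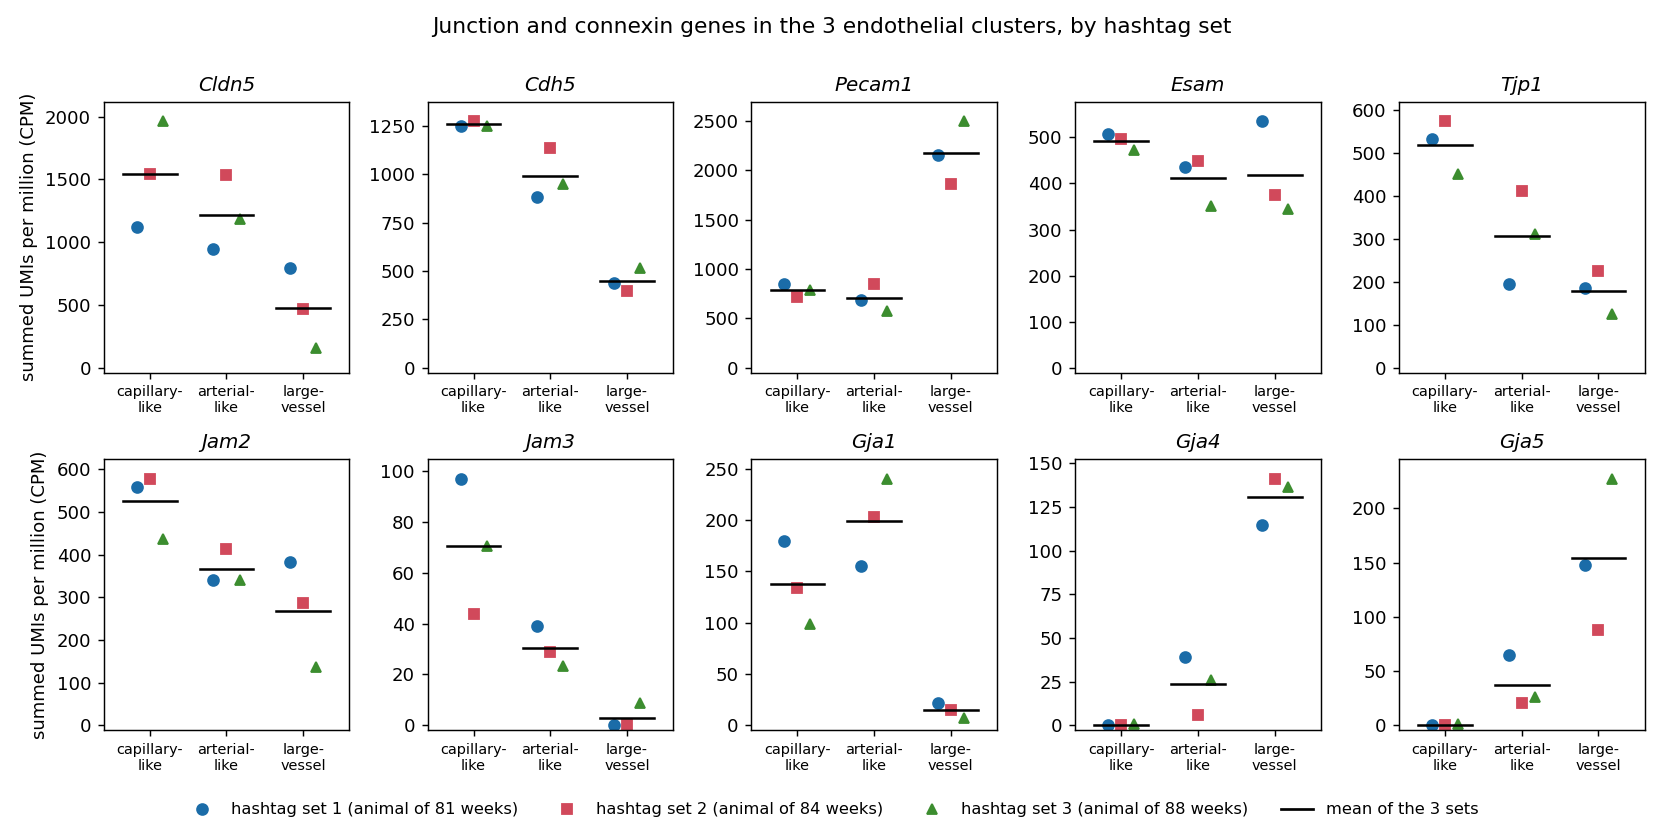
Each panel plots 1 gene, with the 3 endothelial clusters on the x axis and the CPM (linear axis) on the y axis; points are the 3 hashtag sets and the black line is their mean. Pecam1, Gja4 and Gja5 lie highest in the large-vessel cluster, where Gja4 reaches 115 to 141 CPM, and Gja1 lies lowest there at 6.61 to 21.8 CPM.

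Pecam1 was at 2151, 1862 and 2496 CPM in the large-vessel cluster, at 847, 719 and 781 CPM in the capillary-like cluster and at 683, 848 and 576 CPM in the arterial-like cluster. Every large-vessel value lay above every value of the other clusters. The log2 fold change was 1.49 ± 0.14 against capillary-like cells (adjusted p = 1.27e-05, edgeR) and 1.71 ± 0.21 against arterial-like cells (adjusted p = 5.07e-05, edgeR). A Pecam1 UMI was found in 85.9% of large-vessel cells thinned to 1000 UMIs (95% exact binomial interval 76.2 to 92.7%) and in 48.8% of capillary-like cells (45.1 to 52.6%). In T cell-like cells the share was 7.58%, and their Pecam1 level was 65.7 to 71.0 CPM by set. CD31 is also a surface protein of leukocytes.

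Cdh5 went the other way. It was at 437, 397 and 514 CPM in the large-vessel cluster and at 1249, 1275 and 1252 CPM in the capillary-like cluster, with no overlap (log2 fold change -1.47 ± 0.16, adjusted p = 3.26e-05, edgeR). Against the arterial-like cluster, at 881, 1135 and 952 CPM, the log2 fold change was -1.06 ± 0.20 (adjusted p = 0.00164, edgeR). Without set 2 that value was -0.85 (adjusted p = 0.0419, edgeR) and no longer reached the fold limit. Esam was the member for which none of the 3 comparisons within the endothelium gave a call. Its large-vessel levels of 535, 374 and 344 CPM overlapped with 507, 498 and 473 CPM in capillary-like cells (log2 fold change -0.25 ± 0.18, adjusted p = 0.361, edgeR).

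Cldn5 varied widely between sets. In the large-vessel cluster it was at 797, 469 and 157 CPM in sets 1, 2 and 3, and in the capillary-like cluster at 1122, 1546 and 1964 CPM, so that the order of the sets was opposite in these clusters. The log2 fold change was -1.88 ± 0.44 (adjusted p = 0.00699, edgeR), -2.67 without set 1 and -1.08 without set 3. DESeq2 gave -1.99 with an adjusted p of 0.108, which is no call. The capillary markers, 7 genes that include Gpihbp1 and Cd36, moved with Cldn5 over the large-vessel sets: their summed level was 5389, 3445 and 1384 CPM, against 39645, 55432 and 46527 CPM in capillary-like cells, and Car4 was at 0. Cldn5 was at 480 CPM in the 16 large-vessel cells with no capillary marker UMI and at 365 CPM in the 62 cells with one. Both groups pool the sets and were not matched for depth, with 102117 and 796766 UMIs in all. Venous and lymphatic content also differed by set. Of 23, 21 and 34 large-vessel cells, 11, 17 and 34 held no UMI of Ackr1, Lyve1, Prox1, Ccl21a or Mmrn1. The lymphatic markers summed to 22.0 to 1003 CPM by set, and their part in the order of the sets was not tested.

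**Figure D2:**
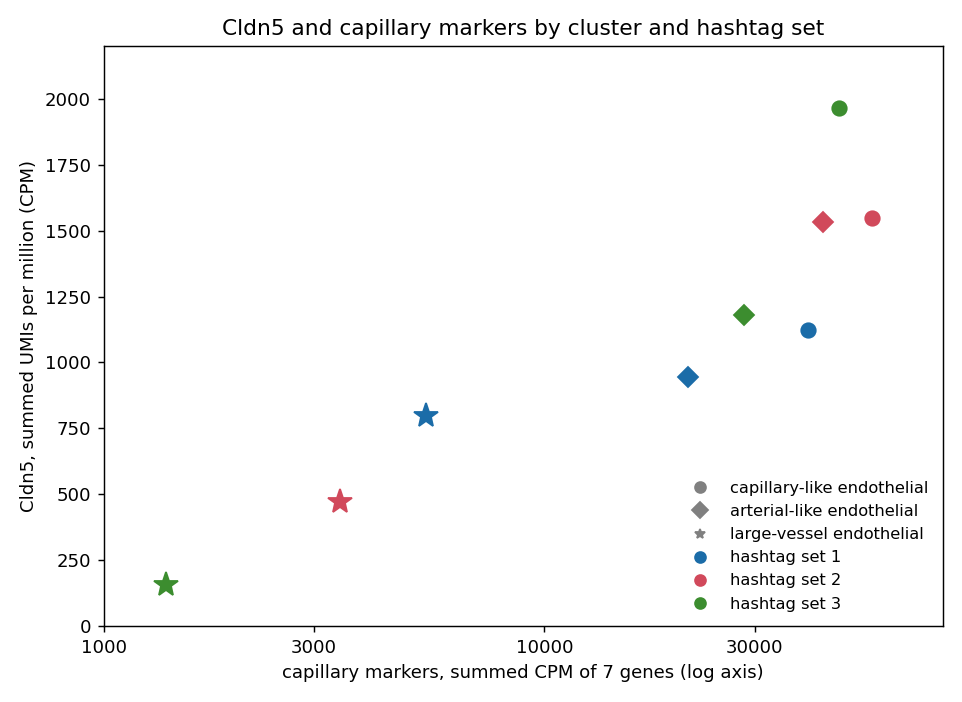
The x axis is the summed CPM of 7 capillary markers (log axis) and the y axis the CPM of Cldn5 (linear axis); each symbol is 1 hashtag set of 1 endothelial cluster, with the shape for the cluster and the colour for the set. The 3 large-vessel sets lie from 157 to 797 CPM of Cldn5 and from 1384 to 5389 CPM of the markers, below all capillary-like and arterial-like sets.

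Tjp1 and Jam2 were also lower in the large-vessel cluster than in the capillary-like one. Tjp1 was at 186, 225 and 126 CPM there, against 533, 575 and 452 CPM (log2 fold change -1.55 ± 0.19, adjusted p = 7.5e-05, edgeR). Jam2 was at 382, 286 and 137 CPM against 559, 577 and 437 CPM (log2 fold change -1.05 ± 0.22, adjusted p = 0.00371, edgeR). The Jam2 value lies close to the limit of 1 and was -0.76 without set 3, which is no call. Jam3 had 4 UMIs in the whole large-vessel cluster, at 0, 0 and 8.82 CPM by set, against 97.0, 43.7 and 70.6 CPM in capillary-like cells (log2 fold change -3.90 ± 0.54, adjusted p = 0.000216, edgeR). All 4 UMIs came from set 3. Without that set the large-vessel cluster held no Jam3 UMI, so the fitted log2 fold change of -8.52 depends on the fit and measures no size. Fibroblast markers also differed between these clusters: the 10 markers summed to 1037 to 2072 CPM in the large-vessel cluster and to 222 to 391 CPM in the capillary-like one, with none at 0, and their part in the results was not tested.

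The connexins also differed between the endothelial clusters. Gja5 was at 147, 87.7 and 227 CPM in the large-vessel cluster and Gja4 at 115, 141 and 137 CPM, from 153 and 120 UMIs. In the capillary-like cluster, with 713 cells, each gene had a single UMI. The ratio of the pooled levels was 596 for Gja5 (95% counting interval 105 to 23701) and 468 for Gja4 (82.3 to 18622). Both genes were called higher in edgeR (adjusted p = 1.86e-07 and 3.96e-07). With 1 UMI each in the capillary-like cluster, they passed the count filter only through the large-vessel sums. These adjusted p values are therefore no support beyond the counts themselves. Gja1 had the opposite pattern, with 21.8, 15.3 and 6.61 CPM in the large-vessel cluster against 180, 134 and 98.8 CPM in the capillary-like one (log2 fold change -3.31 ± 0.32, adjusted p = 1.35e-05, edgeR).

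The upstream sequences of the 3 connexin genes are shown because Gja4 and Gja5 were high in the same cluster and Gja1 was low there. Each is the 250 bases before the start of these 3 genes in RefSeq (build GRCm38.p6), written 5′ to 3′ on the gene's strand. The promoter table used here, drawn from RefSeq, had an entry for 5 of the 10 members (Cldn5, Tjp1, Gja1, Gja4, Gja5). Capitals mark matches on either strand to 5 motifs: an ETS core (AGGAAG), a GC box (GGGCGG), a SOX core (ACAAT), an AP-1 site (TGANTCA) and a TATA box (TATAAA), none of which contains another. Gja5 lies at chr3:97032402-97053634 on the plus strand, with the stretch chr3:97032152-97032401. Gja4 lies at chr4:127311420-127314039 on the minus strand, with the stretch chr4:127314040-127314289. Gja1 lies at chr10:56377300-56390419 on the plus strand, with the stretch chr10:56377050-56377299.
Gja5: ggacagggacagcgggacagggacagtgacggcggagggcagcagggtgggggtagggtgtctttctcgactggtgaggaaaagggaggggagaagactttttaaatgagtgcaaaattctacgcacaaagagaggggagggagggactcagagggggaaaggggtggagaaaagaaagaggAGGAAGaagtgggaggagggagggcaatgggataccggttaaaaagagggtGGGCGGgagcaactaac
Gja4: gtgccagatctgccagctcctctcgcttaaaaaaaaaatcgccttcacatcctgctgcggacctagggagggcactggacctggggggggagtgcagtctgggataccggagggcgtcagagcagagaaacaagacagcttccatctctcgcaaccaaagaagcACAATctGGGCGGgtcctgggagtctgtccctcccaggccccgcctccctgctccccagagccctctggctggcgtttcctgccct
Gja1: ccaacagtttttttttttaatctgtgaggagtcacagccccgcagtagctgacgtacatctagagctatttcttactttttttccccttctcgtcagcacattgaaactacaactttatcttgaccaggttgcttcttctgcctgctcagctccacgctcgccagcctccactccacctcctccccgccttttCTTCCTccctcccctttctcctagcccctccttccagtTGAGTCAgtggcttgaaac

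The Gja5 stretch held an ETS core from -68 to -63 and a GC box from -17 to -12. The Gja4 stretch held a SOX core from -86 to -82 and a GC box from -79 to -74. In the Gja1 stretch an ETS core lay on the minus strand from -57 to -52 and an AP-1 site from -19 to -13. Of the 27025 upstream stretches of this length in the table, 29.2% held an ETS core, 32.9% a GC box, 28.3% a SOX core, 6.87% an AP-1 site and 3504 a TATA box. A match describes letters only.

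Gja4 and Gja5 were also counted cell by cell in the large-vessel cluster. Of the 78 cells, 29 held UMIs of both genes, 12 of Gja4 alone, 17 of Gja5 alone and 20 of neither. With all UMIs 52.6% of these cells held Gja4 and 59.0% Gja5, and thinned to 1000 UMIs the shares were 15.4% (95% exact binomial interval 8.21 to 25.3%) and 14.1% (7.26 to 23.8%). Of the 713 capillary-like cells thinned in the same way 0 held a UMI of either gene. The 95% exact binomial interval reaches 0.516% for each gene, and a share of 3 cells would be 0.421%. Median depths were 8202.5 UMIs per cell in the large-vessel and 3927 in the capillary-like cluster. The 1464 T cell-like cells held 2 Gja4 UMIs and 1 Gja5 UMI in all.

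Taken as a whole, the arterial-like cluster lay between the others for Gja4 and Gja5. Gja5 was at 64.8, 20.5 and 26.1 CPM there and Gja4 at 38.9, 6.16 and 26.1 CPM. Gja1 was highest there, at 156, 203 and 240 CPM, but overlapped with capillary-like cells (log2 fold change 0.59 ± 0.20, adjusted p = 0.054, edgeR). Against capillary-like cells 1 of 9 members tested was called higher (Gja5, adjusted p = 4.12e-06 in edgeR, ratio of pooled levels 112, interval 18.8 to 4550) and 1 lower (Jam3), where 8.53% of the 7137 genes tested were called. Gja4 was not tested there for low counts. Gja5, with 1 UMI in capillary-like cells, passed the count filter only through the arterial-like sums, so its adjusted p is no support beyond the counts. Jam3 was at 38.9, 28.7 and 23.2 CPM against 97.0, 43.7 and 70.6 CPM (log2 fold change -1.15 ± 0.27, adjusted p = 0.00582, edgeR). Its call was lost without set 1 (adjusted p = 0.0594), without set 3 (0.0953) and in DESeq2 (0.157). Of the members not called, those with an adjusted p under 0.05 in edgeR were Tjp1 (-0.76, 0.00165), Jam2 (-0.52, 0.00595) and Cdh5 (-0.36, 0.0275). Each was lower in 3 of 3 sets with no overlap, and missed only the fold limit.

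This cluster also held RNA of mural cells. Its 8 pericyte markers, all detected, summed to 879 to 1309 CPM by set, against 148 to 187 CPM in capillary-like and 10.9 to 34.3 CPM in large-vessel cells, where Higd1b, Ndufa4l2, Vtn and Cox4i2 were at 0. Its smooth muscle markers summed to 6190 to 11435 CPM, against 1287 to 1889 CPM in capillary-like cells. In the 21 arterial-like cells with at least 3 pericyte markers Gja4 was at 50.3 CPM, and in the other 142 it was at 7.84 CPM from 6 UMIs. Gja5 was at 50.3 CPM and 24.8 CPM in these groups of cells. Without endothelial-like cells of at least 3 pericyte markers no member was called between the arterial-like and the capillary-like cluster, and Gja5 then fell below the count filter.

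Between the large-vessel and the arterial-like cluster 3 of 9 members tested were called higher and 3 lower, where 18.4% of the 4700 genes tested were called. These comparisons share the sums described above. Gja4 was 2.74 ± 0.41 higher on the log2 scale in large-vessel cells (adjusted p = 0.000268, edgeR) and Gja5 2.23 ± 0.34 higher (adjusted p = 0.000332), with no overlap between sets for either. Gja1 had a log2 fold change of -3.93 ± 0.38 (adjusted p = 8.35e-06, edgeR), and Cldn5 and Cdh5 were the other members called lower. Gja4 was 2.11 higher without set 2, Gja1 -3.24 without set 3, and Cldn5 moved from -1.53 to -2.24 without set 1 and to -0.91 without set 3, where it was not called. With doublets kept the clusters were formed and named anew, and the arterial-like cluster held 57 cells instead of 163. Gja5 was then 0.95 higher and not called, and Gja4 1.33 higher.

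**Figure D3:**
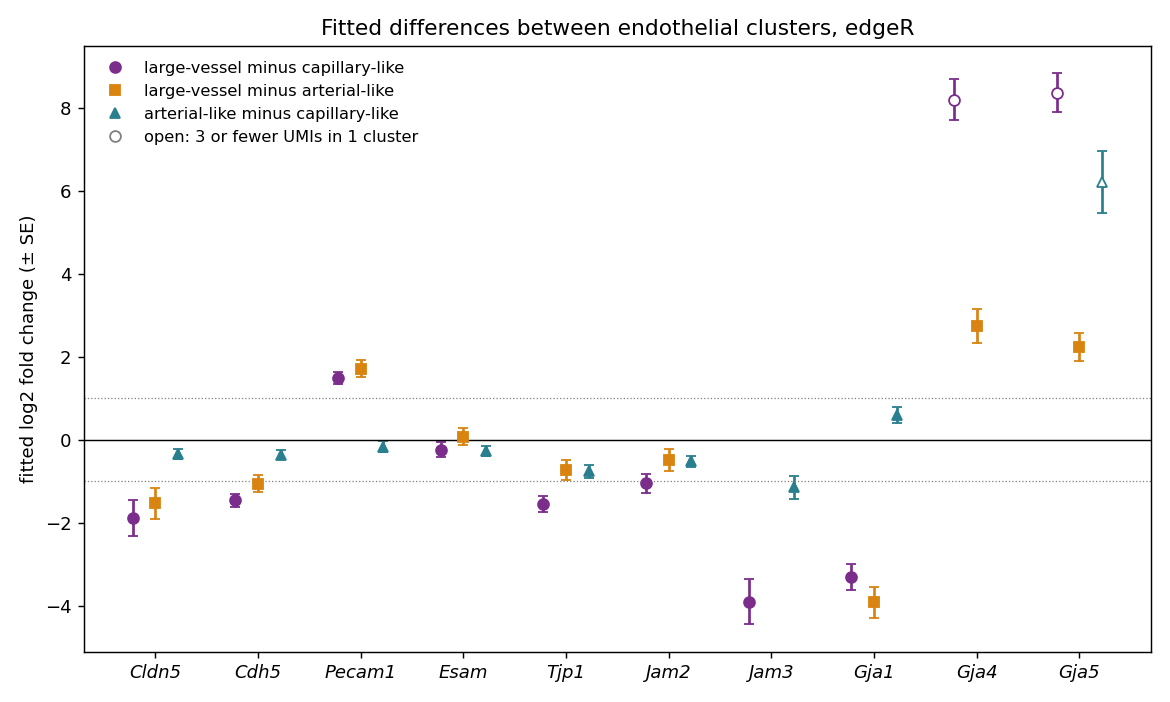
Fitted log2 fold changes (y axis, with SE bars) of the 10 genes (x axis) in the 3 comparisons between endothelial clusters, with dotted lines at 1 and -1; open symbols rest on 3 or fewer UMIs in 1 of the clusters, so that their height depends on the fit. Gja4, Gja5 and Pecam1 lie above 1 and Gja1 below -3 wherever the large-vessel cluster is compared and the gene was tested.

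Across classes Gja1 was shared by endothelial and smooth muscle cells. It was at 111, 131 and 127 CPM in smooth muscle-like cells and at 154, 135 and 102 CPM in endothelial-like cells, with overlapping sets and a log2 fold change of 0.05 ± 0.13 (adjusted p = 0.777, edgeR). Over the alternatives run, that value lay between -0.29 and 0.23. In fibroblast-like cells Gja1 was lower, at 49.5, 47.5 and 33.0 CPM. The difference of smooth muscle-like from fibroblast-like cells was 1.57 ± 0.16 on the log2 scale (adjusted p = 6.12e-08, edgeR), and that of endothelial-like cells 1.58 ± 0.17 (adjusted p = 4.21e-06). Between smooth muscle-like and fibroblast-like cells 1 of 7 members tested was called higher (Gja1) and 2 lower (Cdh5, Jam2), where 21.4% of the 10013 genes tested were called.

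**Figure D4:**
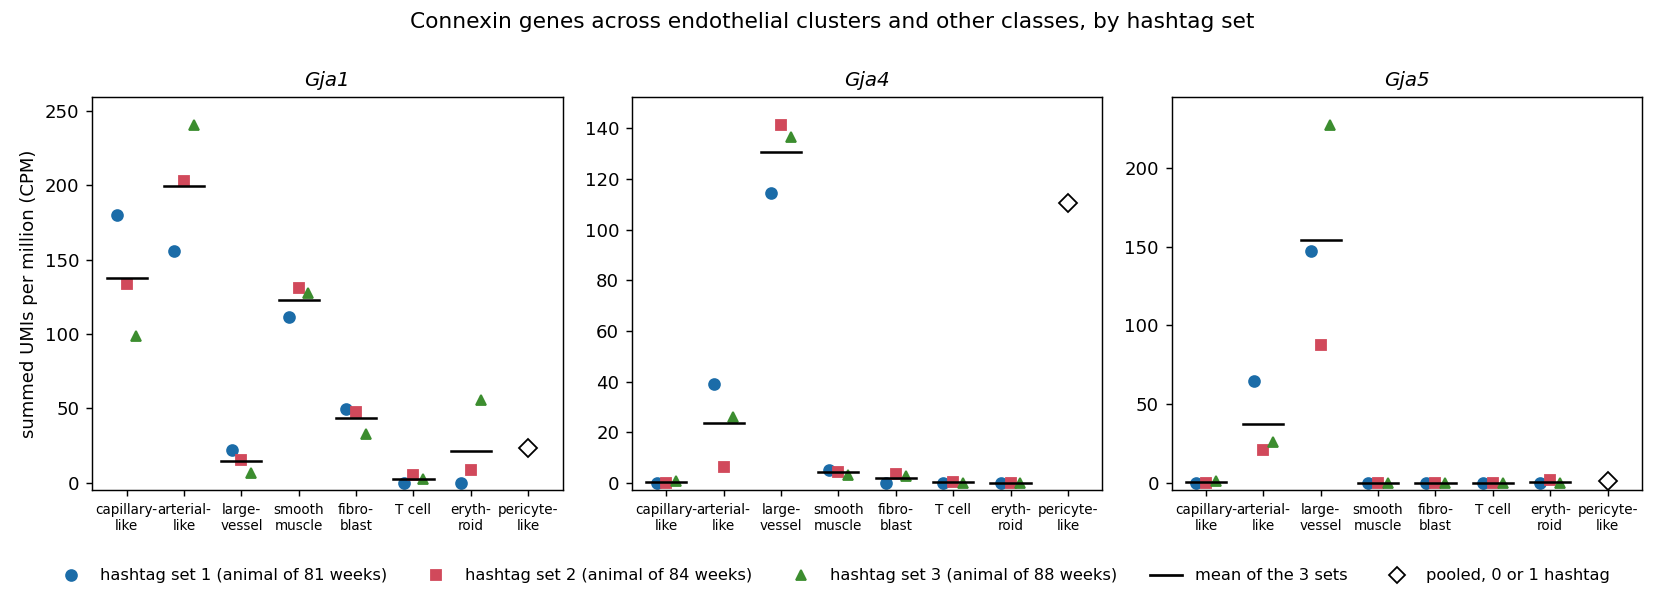
Each panel plots the CPM (linear y axis) of 1 connexin gene in the endothelial clusters, smooth muscle-like, fibroblast-like, T cell-like and erythroid-like cells (x axis), with points for the 3 hashtag sets and a line at their mean; the open diamond is the pooled level in pericyte-like cells of every hashtag state except more than 1, which has no set values. Gja1 lies at 111 to 131 CPM in smooth muscle-like and at 33.0 to 49.5 CPM in fibroblast-like cells, and the large-vessel points of Gja4 and Gja5 lie above all others, at 115 to 141 CPM and 87.7 to 227 CPM.

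The order of Gja1 by mean level was arterial-like (200 ± 42.5 CPM), capillary-like (138 ± 40.7 CPM), smooth muscle-like (123 ± 10.3 CPM), fibroblast-like (43.3 ± 8.99 CPM) and large-vessel cells (14.6 ± 7.64 CPM). Capillary-like cells overlapped with both arterial-like and smooth muscle-like cells. Fibroblast-like cells overlapped with neither smooth muscle-like nor large-vessel cells. In 31 mesothelial-like cells, of which sets 2 and 3 held 9 each and so fewer than the 10 asked of a sum elsewhere, Gja1 was at 163, 198 and 238 CPM and Esam at 198, 222 and 209 CPM, while Cldn5 and Cdh5 had no UMI there. Low hashtag signal limits the set values outside the endothelium, but the levels pooled over every hashtag state except more than 1 were close: 126.0 CPM of Gja1 in 5233 smooth muscle-like cells and 44.6 CPM in 1300 fibroblast-like cells. Fibroblast-like cells split there into a Pi16 and Clec3b cluster, with 67.9 CPM of Gja1 and 39.3 CPM of Jam2, and a Lum and Dio2 cluster, with 21.6 and 68.8 CPM, for which no set values exist. T cell RNA was found in 66.4% of smooth muscle-like and 65.1% of fibroblast-like cells, and without those cells the Gja1 difference between the classes was 1.37 and still called.

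Gja4 was low but present in smooth muscle-like cells. It was at 4.89, 4.41 and 3.01 CPM, from 47 UMIs, against 22.3, 18.3 and 37.3 CPM in endothelial-like cells (log2 fold change 2.59 ± 0.31 higher in endothelial-like cells, adjusted p = 6.88e-05, edgeR). By cluster it was at 17.1, 9.76 and 7.24 CPM in the 233 smooth muscle-like cells marked by Actc1, Tnnt2 and Des, and at 1.88, 3.23 and 1.96 CPM in the 618 cells marked by Npnt and Itga8, a difference for which no test was run. In smooth muscle-like cells with at least 4 pericyte markers Gja4 was at 9.83 CPM, and in the others at 3.00 CPM. Gja5 had 1 UMI in smooth muscle-like cells and none in fibroblast-like cells. Its level in endothelial-like cells was at least 21.5-fold higher than the limit that 3 UMIs over all fibroblast-like cells set.

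Over 20 clusters of at least 20 cells the members fell into patterns, given as Pearson correlations of log2(CPM + 10). These clusters come from 1 pool and share its libraries. Cldn5 was most like Cdh5 (0.98), then Shank3 and Cyyr1 (0.97 each), among 7592 genes. Gja5 was most like Gkn3 (0.98), Vwf (0.96) and Pkn3 (0.95), and Gja4 was most like Ephx2 (0.93), Gja5 (0.92) and Gkn3 (0.92). Gja1 stood apart from both, with 0.27 to Cldn5 and 0.01 to Gja5, and was most like Filip1 (0.95), Jund (0.92) and Fermt2 (0.92). Among the members Gja1 was closest to Jam3 (0.87) and Tjp1 (0.83).

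Other junction genes, from lists that exclude the members, were read against the 21.3% of all genes called between large-vessel and capillary-like cells. In the tight junction list 9 of 38 genes were tested, of which 3 were called higher and 2 lower (median log2 fold change -0.37, beside 0.00 over all genes tested). Cgnl1, which encodes the junction scaffold paracingulin, was at 694 ± 96.3 CPM in large-vessel and 42.7 ± 4.34 CPM in capillary-like cells (log2 fold change 4.04 ± 0.19, adjusted p = 9.76e-08, edgeR). Lsr, a protein of tricellular contacts, was at 61.7 ± 13.8 against 0.231 ± 0.401 CPM. Cldn15, another claudin, was lower, at 11.3 ± 3.92 against 54.5 ± 10.3 CPM. Of 15 adherens junction genes tested 3 were called higher and 4 lower (median -0.23): the cadherin gene Cdh13 was at 475 ± 57.1 against 210 ± 25.2 CPM, and Jup, which encodes plakoglobin, was at 66.6 ± 28.8 against 374 ± 36.5 CPM. Genes that act on junctions through Rap1, the CCM complex and receptors had 1 called higher and 10 lower of 21 tested (median -0.80), and the other 10 were not called. The gene called higher was Heg1, the membrane receptor of the CCM complex, at 725 ± 159 against 158 ± 23.1 CPM. Of 11 endothelial contact genes tested, 2 were called higher and 1 lower, a share near that of all genes. Those called higher were Clec14a, at 417 ± 104 against 65.3 ± 17.7 CPM, and Amigo2, at 118 ± 49.5 against 3.11 ± 1.16 CPM.

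Against smooth muscle-like cells, where 30.4% of all genes tested were called, genes acting through Rap1, the CCM complex and receptors had 16 called higher and 2 lower of 23 tested (median 2.47, beside 0.01). The adherens junction list had 8 higher and 4 lower of 18 (median 0.93), the tight junction list 6 higher and 3 lower of 13 (median 0.95), and the endothelial contact list 6 higher and 1 lower of 11 (median 1.57). The desmosome list had 1 gene tested, called lower. Ptprb, the phosphatase that acts on VE-cadherin and on the receptor Tek, was at 1412 ± 12.0 CPM in the endothelium and at 4.63 ± 1.25 CPM in smooth muscle. F11r, which encodes JAM-A, was at 227 ± 3.78 against 10.8 ± 0.28 CPM. In the other direction, Dsp, a desmosome gene, had a log2 fold change of -3.72 ± 0.14 (adjusted p = 2.77e-08, edgeR). The cadherin gene Cdh6 was at 4.85 ± 1.73 CPM in the endothelium and at 64.6 ± 6.65 CPM in smooth muscle. Of the 20 other connexin and pannexin genes only 2 passed the count filter here. Of these, 1 was called lower, and it did not meet the limits for naming a gene. In the separate comparison of smooth muscle-like with fibroblast-like cells, Gjc1, which encodes connexin 45, was at 65.3 ± 6.70 against 30.3 ± 20.8 CPM. Its log2 fold change was 1.30 ± 0.24 (adjusted p = 0.000185, edgeR). Without set 2 its log2 fold change was 0.97, which is no call.

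When the endothelial-like cells were clustered on their own, a cluster of 78 cells led by Lrg1, Plvap and Ackr1 came apart that the venous markers named. Ackr1 had no UMI in the main capillary-like and arterial-like clusters, so its UMIs here come from cells of the main large-vessel cluster. Much of the other RNA did not: the venous-named cluster held 81 Gja1 and 45 Jam3 UMIs. The whole main large-vessel cluster held 11 and 4, so the venous-named cluster also took in cells of the other main endothelial clusters. The venous-named cluster held 904 CPM of Cldn5, 1177 CPM of Cdh5, 154 CPM of Gja1 and no Gja5 UMI. The large-vessel cluster had 72 cells in that clustering, with 146 CPM of Gja4, 186 CPM of Gja5 and 6.17 CPM of Gja1. A cluster of 246 cells led by the arterial marker Rbp7, which no marker set named, had 0 UMIs of Gja4 and 0 of Gja5 among 1269353 UMIs. Another cluster, of 46 cells and named arterial, held 61.1 CPM of Gja4 and 99.7 CPM of Gja5. Its leading genes included the pericyte genes Rgs5, Notch3 and Ndufa4l2. Against these 46 cells the large-vessel cluster was 1.33 higher in Gja4 and 0.80 higher in Gja5 on the log2 scale. Neither was called (adjusted p = 0.0518 and 0.0675, edgeR).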

How the data were processed

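Gene and hashtag counts were analysed as deposited: per the file headers the authors made the count matrix with Cell Ranger 6.0.1, and the submitters' processing notes name Seurat 4.0.5 and mm10. The matrix held 26916 barcodes, each with at least 900 UMIs. Cells with at least 500 genes, 1000 UMIs and under 15% mitochondrial UMIs were kept (11301), 360 doublets (3.19%, Scrublet) were removed, and HTODemux (Seurat 5.3.0, quantile 0.99) assigned 4175 cells to 1 hashtag each. Clusters came from scanpy 1.11.5 (2000 variable genes, 30 components, Leiden resolution 0.8), without the members and lists among the variable genes. The naming limits were set after the data were seen.

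UMIs were summed per cluster class and hashtag set (at least 10 cells) and compared with edgeR 4.0.16's quasi-likelihood test. The hashtag set was a block, since each set is taken as 1 animal in both classes compared. Benjamini-Hochberg adjustment was over all genes tested. On simulated data 95.9% of genes changed by 1.5 and 100% of those changed by 3 on the log2 scale were called with 10372 genes, for endothelial-like against smooth muscle-like cells. For large-vessel against capillary-like cells, with 6951 genes, the shares were 79.8% and 100%. The simulated counts came from levels pooled over both classes, with no differences between sets. Far fewer genes changed in them than were called in the data, so these shares need not hold for the real comparisons. Intervals are exact and cover counting error only. The members and lists were chosen with earlier results of these data known. Genes of a list could be named where they were among the 2 largest called changes each way of a comparison, with 1 sign in every set and at least 50 CPM in the higher class. Alternatives were other scaling, DESeq2 1.42.0, filters, hashtag, doublet and clustering settings, and leaving out each set.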

Additional observations from a re-analysis of the deposited data

Results flagged for a closer look

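Pericyte-like cells enter no comparison, because 123 of them were found only when cells of every hashtag state except more than 1 were clustered, and 20.3% carried exactly 1 hashtag. In these cells Gja4 stood at 110.5 CPM, a signal outside the compared groups, beside 3.55 CPM in smooth muscle-like cells of the same clustering. Esam stood at 102.5 CPM there, beside 10.9 CPM in smooth muscle-like cells. Gja1 was at 23.1 CPM and Cldn5 at 2.01 CPM in the same cells. These levels are pooled over the animals and have no spread.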

How the results depend on the processing

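The number of members called was within 1.5 times its value under every alternative run, except between arterial-like and capillary-like cells. There it was 2, ranged from 1 to 3 when a set was left out, and was 0 with a hashtag count of at least 2 times the cutoff and 0 without endothelial-like cells of at least 3 pericyte markers (added after the data were seen). With no replicate block the counts were 8, 9, 3, 9, 2 and 6, in the order endothelial against smooth muscle, endothelial against fibroblast, smooth muscle against fibroblast, large-vessel against capillary, arterial against capillary and large-vessel against arterial, as with the block. Of the members' values under alternatives, 729 stayed on their side of the call limits, called or not, 15 lost a call and 2 gained one. Ccn3 between arterial-like and capillary-like cells went from 2.07 to -0.67 with doublets kept. In that setting the clusters were formed anew and the arterial-like cluster held 57 cells, and the cause was not tested. The count over all genes went from 2138 of 10013 tested to 1123 of 5630 between smooth muscle-like and fibroblast-like cells with the stricter hashtag limit, and from 609 of 7137 to 302 of 6595 between arterial-like and capillary-like cells without pericyte-marker cells. Between large-vessel and arterial-like cells it went from 866 of 4700 to 543 of 14886 in DESeq2, 1411 of 14886 with no filter and 568 of 2508 with the endothelium clustered alone. No capillary cluster was named at Leiden resolution 1.2 or in the endothelium clustered alone, so these gave no value. The 78 large-vessel cells limit what can be detected for low genes.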
